A study of Homo sapiens with 12 samples.

Results

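WNT ligands and secreted WNT inhibitors were followed by 8 genes of the expression table: the ligands WNT2, WNT5A, WNT5B and WNT16, the secreted inhibitors DKK1, DKK3 and SFRP1, and AXIN2, a target gene of the pathway. They were picked by symbol from a table of 27106 genes, and all 8 had enough reads to be tested, as had 13924 genes in all. Their main movements under oncogenic Ras were a rise of WNT5A and WNT5B, a fall of WNT16 and of DKK1, and a dip of AXIN2 on day 4. In cells with a scramble hairpin WNT5A was 2.44-fold and WNT5B 1.54-fold higher on day 10 than on day 0, and DKK1 was 4.72-fold lower. By limma, DKK3 was the 1 member called between the genotypes within a day, and WNT5A the 1 member called for a different change from day 0. DESeq2 on recovered reads called more members in these comparisons, and both limma calls were lost when some single libraries were left out.

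WNT proteins are secreted, lipid-modified signalling proteins that bind Frizzled receptors on nearby cells. In the canonical branch an LRP co-receptor is bound as well, the destruction complex built on AXIN is switched off, and beta-catenin accumulates and acts with TCF/LEF factors in the nucleus. In the non-canonical branches Frizzled acts with receptors such as ROR2 on cell shape, polarity and calcium. DKK1 blocks the LRP co-receptors, secreted Frizzled-related proteins such as SFRP1 bind WNT itself, and AXIN2 is a feedback inhibitor that beta-catenin switches on. WNT5A is best known as a non-canonical ligand of fibroblasts and mesenchyme. WNT16 is known as a ligand made by stressed and senescent fibroblasts, and WNT2 as a canonical ligand of the lung mesenchyme.

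The cells were IMR90, a human lung fibroblast line, here carrying hTERT (the catalytic subunit of telomerase) in every group, together with an oncogenic Ras fusion (RasERT2) that tamoxifen switches on. One genotype carried a scramble hairpin RNA (shScr, wild type per the labels) and the other a hairpin RNA (shIL1R) that targets the receptor for interleukin-1. Doxycycline at 0.5 ug/ml switched the hairpins on, per the labels, and 200 nM tamoxifen or ethanol followed. Each genotype was collected on day 0 (growing), day 4 (the start of the secretory phenotype of senescence) and day 10 (senescent), with 2 libraries of poly(A) RNA in each of the 6 groups, 12 in all. According to the series text 2 hairpins targeted the receptor, and the labels do not say whether the replicate numbers of shIL1R stand for these hairpins, for cultures or for preparations. The p-values therefore measure the spread between these libraries, which may be technical.

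Libraries held 24140324 to 30127727 reads assigned to genes, and 1 read equals 0.835 to 1.20 normalized counts, the unit of every level below. IL1R1, the targeted receptor, lay between 1240 and 1580 normalized counts in the 6 shScr libraries and between 86.4 and 731 in the 6 shIL1R libraries. On day 0 the reduction left 731 and 378 normalized counts, and it was not called there (log2 fold change −1.54 ± 0.42, limma adjusted p = 0.281). On day 4 and day 10 it was called (−3.27 and −2.28 on the log2 scale, limma adjusted p = 0.0205 and 0.0102). All 10 fibroblast markers were detected in every group, though not at a constant level. DCN, for example, had 7877 and 6820 normalized counts in shScr on day 0 and 1769 and 1361 on day 10. Replicate 2 of shIL1R day 10 stood apart from replicate 1, with 22980 against 6312 normalized counts of COL3A1, 98304 against 42626 of COL1A2 and 5117 against 2697 of PDGFRA. The 6 epithelial markers summed to between 2.26 and 10.8 normalized counts. Among endothelial markers CDH5 was at 0 in all 12 libraries, while the summed list went from between 40.9 and 50.5 normalized counts on day 0 to between 526 and 714 on day 10 in shScr cells. The 6 leukocyte markers summed to between 2865 and 3149 normalized counts in shScr on day 0 and between 7432 and 9066 on day 10 (2848 to 2880 and 5797 to 8518 in shIL1R). Most of that was CD68, a lysosomal protein, with CD3E at 0 in all libraries and PTPRC at 3.04 or less. The smooth muscle and neural list went from between 8576 and 8737 to between 5965 and 7021 in shScr, nearly all of it ACTG2 and TUBB3. The part of these shifts in the results below was not tested.

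Promoter sequences are shown for DKK1 and WNT5A, the members with the largest fall and the largest rise in shScr cells on day 10. They are the 250 bases before each start site in RefSeq on GRCh38.p14, written 5′ to 3′ along the gene, and differ in build from the hg19 alignment of the reads. Capitals mark the letters CTTTGA, the core of the TCF/LEF motif, on either strand (TCAAAG is its reverse).
DKK1, chr10:52314031-52314280, plus strand: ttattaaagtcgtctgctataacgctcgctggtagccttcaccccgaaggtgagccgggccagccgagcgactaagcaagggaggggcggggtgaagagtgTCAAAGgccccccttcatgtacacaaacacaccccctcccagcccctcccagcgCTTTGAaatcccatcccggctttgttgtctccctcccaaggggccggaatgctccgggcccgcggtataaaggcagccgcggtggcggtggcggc
WNT5A, first start, chr3:55487307-55487556, minus strand: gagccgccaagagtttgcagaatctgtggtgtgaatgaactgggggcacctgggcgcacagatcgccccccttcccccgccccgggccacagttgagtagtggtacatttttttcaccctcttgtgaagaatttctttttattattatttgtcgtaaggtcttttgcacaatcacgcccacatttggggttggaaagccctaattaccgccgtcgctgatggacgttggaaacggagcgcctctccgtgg
WNT5A, second start, chr3:55481399-55481648, minus strand: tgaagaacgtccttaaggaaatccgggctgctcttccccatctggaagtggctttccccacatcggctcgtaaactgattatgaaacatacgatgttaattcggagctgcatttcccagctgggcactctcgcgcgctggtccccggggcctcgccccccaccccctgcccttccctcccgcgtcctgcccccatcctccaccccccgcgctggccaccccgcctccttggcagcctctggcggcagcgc

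Windows were read for 5 of the 8 members (WNT2, WNT5A, WNT5B, WNT16 and DKK1, 7 windows in all). SFRP1 was left out of the search, and no window was found for DKK3 or AXIN2. The DKK1 window was the 1 window of these with the TCF/LEF letters, which begin 149 and 95 bases before the start site. Of 35116 promoter windows of the same length in the table, 11.2% held at least 1 match on either strand and 0.977% held 2 or more. The AP-1 letters TGANTCA were in none of the 7 windows and in 6.57% of all windows. The NF-kB motif, searched as a letter pattern on either strand, matched once, in the WNT16 window, and in 9.96% of all windows. These are matches of letters and say nothing about binding in these cells.

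The 8 members spanned more than 3 orders of magnitude in level. Per kilobase of exon (GENCODE v29 exon lengths), the shScr day 0 libraries held 6729 and 6145 normalized counts of DKK3, 2858 and 3072 of SFRP1, and 889 and 783 of WNT5A. DKK1 followed with 714 and 772 normalized counts per kilobase, WNT5B with 671 and 658, and WNT16 with 453 and 447. AXIN2 (4.75 and 4.63) and WNT2 (3.47 and 2.78) came last. In that order no neighbours overlapped between their libraries, although WNT5A and DKK1, and DKK1 and WNT5B, lay close together. On day 10 the shScr order below SFRP1 became WNT5A (2022 and 2046), WNT5B (1018 and 1032), WNT16 (237 and 361) and DKK1 (156 and 158). The secreted inhibitor DKK3 and the WNT binder SFRP1 were thus the most abundant members per length, and the rest of the text gives levels that are not divided by length.

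**Figure D1:**
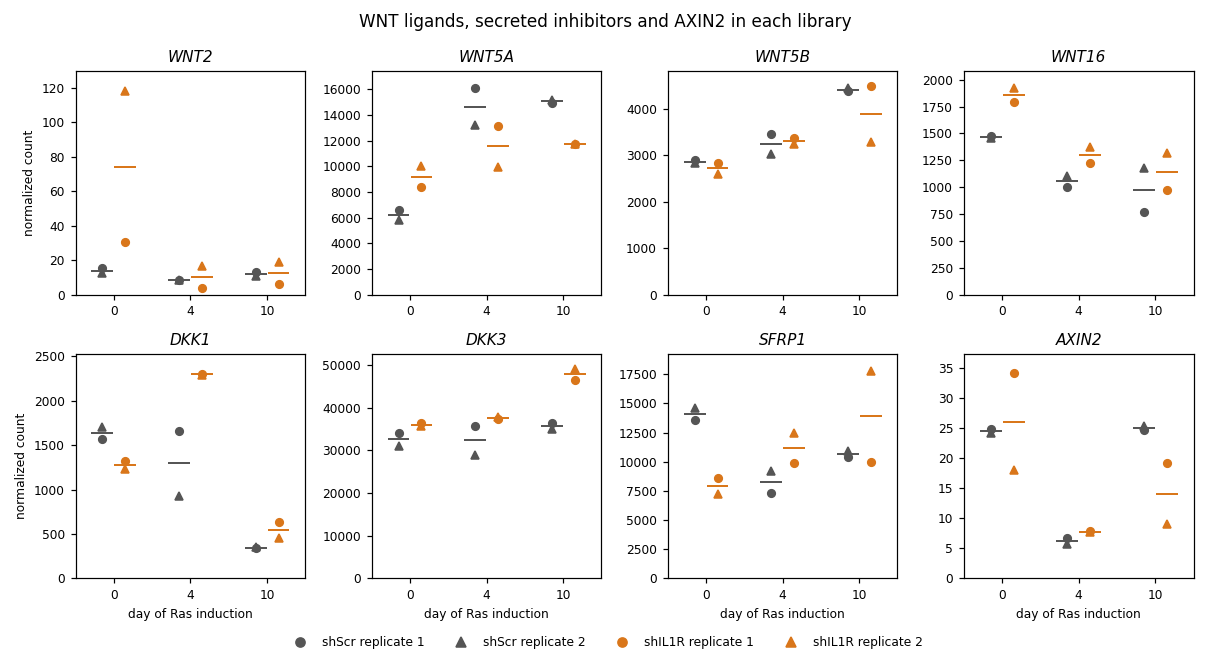
Normalized counts (vertical axes, from 0) of the 8 members against the day of Ras induction, with shScr in grey and shIL1R in orange. Circles and triangles are replicates 1 and 2 and the horizontal line is the mean of a group; WNT5A rises with Ras, DKK1 is lowest on day 10, and AXIN2 lies under 8 normalized counts in all 4 day 4 libraries.

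The changes over time are log2 differences of normalized count plus 1 with their standard error, taken from 1 limma fit of all 12 libraries, and fold values are on the same scale. A gene was called at an adjusted p below 0.05 over all tested genes. The day 0 libraries of a genotype enter both of its comparisons against day 0. In bulk RNA, fewer cells that express a gene and less of its RNA per cell cannot be told apart. On day 4 in shScr cells 3 of the 8 members were called (1 higher, 2 lower), when 38.3% of all tested genes were (19.4% higher, 18.9% lower). By day 10 the count in shScr cells was 4 of 8 (2 higher, 2 lower) against 63.8% of all tested genes (32.5% higher, 31.3% lower). The shIL1R cells gave 4 of 8 on day 4 (1 higher, 3 lower) against 40.4% (20.1% higher, 20.3% lower). On day 10 they gave 7 of 8 (4 higher, 3 lower) against 60.3% (30% higher, 30.3% lower). From day 4 to day 10, 3 of 8 were called in shScr (44.1% of all tested genes) and 2 of 8 in shIL1R (35.9%). Most tested genes had changed by day 10, so a count of 4 to 7 members is no mark of this family, and the list itself was not tested. In shScr cells the libraries did not overlap with day 0 for 75.6% of all tested genes on day 4 and 84.9% on day 10. In shIL1R cells these shares were 74.3% and 78.4%. The median log2 changes of the members on day 10 were −0.09 in shScr and −0.18 in shIL1R against 0.01 for all tested genes in each genotype.

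WNT5A, the non-canonical ligand, had 6579 and 5791 normalized counts in shScr cells on day 0, 16090 and 13214 on day 4 and 14958 and 15137 on day 10. Every library after tamoxifen lay above both day 0 libraries, and day 4 and day 10 overlapped. The shScr rise was 1.24 ± 0.14 on day 4 (limma adjusted p = 7.56e-05) and 1.29 ± 0.14 on day 10 (limma adjusted p = 1.35e-05), and both calls held under every setting tried. In shIL1R cells WNT5A had 8367 and 10020 normalized counts on day 0, 13169 and 9982 on day 4 and 11727 and 11757 on day 10. The day 0 libraries were higher here than in shScr cells and the later ones lower, so the span across days was narrower. The shIL1R difference was 0.32 ± 0.14 on day 4 (limma adjusted p = 0.0876) and 0.36 ± 0.14 on day 10, where it was just called (limma adjusted p = 0.0456). The day 10 call was lost in 11 of 23 alternative settings, and under quantile normalization the value was 0.20 (limma adjusted p = 0.174).

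WNT5B, a close relative of WNT5A, had 2888 and 2833 normalized counts in shScr cells on day 0, 3450 and 3020 on day 4 and 4381 and 4442 on day 10. The shIL1R libraries held 2835 and 2600, then 3371 and 3241, then 4492 and 3278. Levels rose later than those of WNT5A: in shScr cells the difference from day 0 was 0.17 ± 0.13 on day 4 (limma adjusted p = 0.307) and 0.62 ± 0.13 on day 10 (limma adjusted p = 0.00125). In shIL1R cells WNT5B was 0.50 ± 0.13 higher on day 10 (limma adjusted p = 0.00557). Replicate 2 of that group, which had more COL3A1 and COL1A2 than replicate 1, lay well below replicate 1 for WNT5B. FBXL14 overlaps WNT5B on the opposite strand, with at most 343 normalized counts in a library, and the strand setting of the authors' counting is not given in the sources used here.

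WNT16 went the other way. Its shScr levels were 1476 and 1456 normalized counts on day 0, 999 and 1109 on day 4, and 772 and 1177 on day 10. The shIL1R libraries held 1792 and 1926, 1223 and 1378, and 975 and 1317. In each genotype all libraries after Ras induction lay below both day 0 libraries. WNT16 was 0.62 ± 0.18 lower on day 10 in shScr (log2 fold change −0.62, limma adjusted p = 0.0115) and changed by −0.71 ± 0.18 in shIL1R (limma adjusted p = 0.00582). The day 4 difference in shScr missed the call (−0.48, limma adjusted p = 0.0600), and that in shIL1R passed (−0.52, limma adjusted p = 0.0429) but was lost when any of 8 single libraries was left out. The shScr day 10 call was lost when the lower day 10 library, replicate 1, was left out (−0.32, limma adjusted p = 0.131), and likewise for replicate 1 of the day 0 group (limma adjusted p = 0.0528). A gene known from senescent fibroblasts was thus at its highest here in the growing cells of both genotypes.

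WNT2 was near the floor of the assay in most libraries. In shScr cells it had 15.6 and 12.5 normalized counts on day 0, 8.56 and 8.52 on day 4 and 12.98 and 11.14 on day 10, with no call. In shIL1R cells the pairs were 30.5 and 118, 3.91 and 16.6, and 5.995 and 19.2. Replicate 2 was above replicate 1 by 3.86-fold, 4.25-fold and 3.20-fold in the shIL1R groups, so the numbered libraries kept their order at each day. The fall from day 0 in shIL1R was called on day 4 (−2.72 ± 0.72, limma adjusted p = 0.0117) and on day 10 (−2.37 ± 0.72, limma adjusted p = 0.0144). Both calls rest on replicate 2 of shIL1R day 0 (137 reads against 34 in replicate 1): without it the WNT2 differences were −1.76 (limma adjusted p = 0.123) and −1.41 (limma adjusted p = 0.159). They were also lost without replicate 1 of shIL1R day 4 (−1.80, limma adjusted p = 0.107) or of shIL1R day 10 (−1.60, limma adjusted p = 0.105).

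DKK1, which blocks the LRP co-receptors, was the member with the largest called fall in shScr cells. It had 1575 and 1702 normalized counts there on day 0, 1664 and 931 on day 4, and 343 and 348 on day 10. Day 10 stood clear of the earlier days, while the libraries of day 4 lay far apart, 1 of them within the day 0 range. The shScr fall from day 0 to day 10 was −2.24 ± 0.22 (limma adjusted p = 6.49e-06), and that from day 4 to day 10 was −1.84 ± 0.22 (limma adjusted p = 0.0001). On day 4 the difference from day 0 was not called (−0.40, limma adjusted p = 0.187), and it was −0.81 (limma adjusted p = 0.00768) when replicate 1 of shScr day 4 was left out and 0.02 when replicate 2 was.

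In shIL1R cells DKK1 rose before it fell. It had 1326 and 1233 normalized counts on day 0, 2305 and 2296 on day 4, and 638 and 453 on day 10. Both shIL1R day 4 libraries lay above the other 10 libraries for DKK1, and the day 10 libraries lay below day 0. The rise to day 4 was 0.85 ± 0.22 (limma adjusted p = 0.0115), the fall from day 4 to day 10 was −2.10 ± 0.22 (limma adjusted p = 7.9e-05), and day 10 against day 0 was −1.25 ± 0.22 (limma adjusted p = 0.000573). The rise was lost without replicate 2 of shIL1R day 0 (limma adjusted p = 0.0678) and without either library of shIL1R day 4 (0.0530 and 0.0515), while the calls on day 10 held under every setting tried. PRKG1-AS1, on the opposite strand of DKK1, reached at most 9.18 normalized counts.

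DKK3, a related secreted glycoprotein whose action on the pathway is less settled, was the most abundant member and the flattest in shScr cells. It had 34043 and 31087 normalized counts on day 0, 35814 and 28916 on day 4 and 36386 and 35091 on day 10, and no comparison over time was called in shScr. In shIL1R cells the pairs were 36335 and 35645, 37346 and 37778, and 46573 and 49022, so that day 10 stood above all other libraries of the gene. The shIL1R rise was 0.41 ± 0.11 from day 0 (limma adjusted p = 0.00603) and 0.35 ± 0.11 from day 4 (limma adjusted p = 0.0251). Quantile normalization took the rise from day 0 to 0.04 (limma adjusted p = 0.737), and the call was lost with it.

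SFRP1, which binds WNT proteins, had 13608 and 14625 normalized counts in shScr cells on day 0, 7320 and 9212 on day 4 and 10403 and 10957 on day 10. It dipped on day 4 (−0.78 ± 0.22, limma adjusted p = 0.0171), and leaving out either shScr day 0 library ended the call (limma adjusted p = 0.0593 and 0.0943), as did leaving out the lower day 4 library, replicate 1 (0.127). Day 10 was not called against day 0 (−0.40 ± 0.22, limma adjusted p = 0.134). The shIL1R libraries moved upward: 8574 and 7217 normalized counts on day 0, 9868 and 12438 on day 4, and 10012 and 17779 on day 10. There the difference from day 0 was 0.49 ± 0.22 on day 4 (limma adjusted p = 0.0971) and 0.76 ± 0.22 on day 10 (limma adjusted p = 0.0115). The day 10 libraries were the farthest apart of any SFRP1 pair, and without the higher one, replicate 2, the rise was 0.35 (limma adjusted p = 0.0809). Replicate 2 also had more COL3A1 and COL1A2 than replicate 1, and a link of these to SFRP1 was not tested.

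AXIN2, the feedback target of beta-catenin, was low throughout. In shScr cells it had 24.8 and 24.2 normalized counts on day 0, 6.66 and 5.68 on day 4 (7 and 6 reads) and 24.8 and 25.3 on day 10. The shIL1R libraries held 34.1 and 18.1, then 7.81 and 7.75, then 19.2 and 9.03. The 4 libraries of day 4 were the lowest of all 12. In shScr cells AXIN2 changed by −1.83 ± 0.40 to day 4 (limma adjusted p = 0.00453) and by 1.86 ± 0.40 from day 4 to day 10 (limma adjusted p = 0.0036), and both calls held under every setting tried. In shIL1R cells the change to day 4 was −1.56 ± 0.40 (limma adjusted p = 0.0107, lost without replicate 1 of shIL1R day 0, at −1.12), and that from day 4 to day 10 was 0.70 ± 0.40 (limma adjusted p = 0.206). With counts this low, the exact 95% Poisson interval of each shScr day 4 library still ended at 13.7 and 12.4 normalized counts, below both day 0 values.

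**Figure D2:**
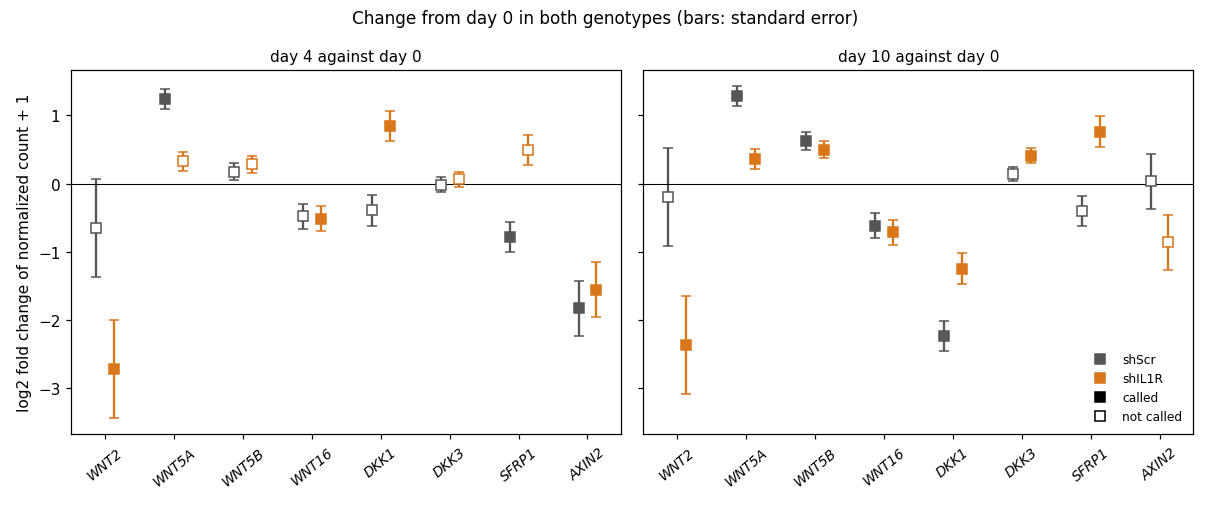
Log2 fold change of normalized count plus 1 against day 0 for the 8 members, on day 4 (left) and day 10 (right), with standard errors as bars, shScr in grey and shIL1R in orange. Filled squares were called by limma; DKK1 and SFRP1 have opposite signs in the genotypes on day 4, and WNT5A, WNT5B, WNT16 and DKK1 are filled in both genotypes on day 10.

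Few members were called between the genotypes by limma. With 2 libraries per group a missed call does not show equal levels, as IL1R1 itself was not called on day 0 (limma adjusted p = 0.281). Libraries of the genotypes did not overlap for 51.4%, 53.1% and 49% of all tested genes on day 0, 4 and 10, so such separation is no mark of a member. On day 0 none of the 8 was called in shIL1R against shScr (3 at an unadjusted limma p under 0.05), when 0.0646% of all tested genes were. On day 4 none was called (2 at an unadjusted limma p under 0.05) against 0.28% of all tested genes. By DESeq2 on recovered reads 2 members were called on day 0 and 1 on day 4, and by edgeR 0 and 0. On day 10 DKK3 was the 1 member called, against 9.21% of all tested genes. It was 0.42 ± 0.11 higher in shIL1R (1.34-fold, limma adjusted p = 0.0338), with both shIL1R libraries above both shScr libraries, and the call was lost in 11 of 23 alternative settings.

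Values not called by limma are given for DKK1, WNT5A, AXIN2, SFRP1 and WNT2. DKK1 had values lower in shIL1R on day 0 (−0.36 ± 0.22, limma adjusted p = 0.703). It had values higher in shIL1R on day 4 (0.89 ± 0.22, 95% interval 0.40 to 1.38, limma adjusted p = 0.0954) and on day 10 (0.63 ± 0.22, 0.14 to 1.12, limma adjusted p = 0.0978). Its libraries did not overlap on any day, as was the case for 51.4%, 53.1% and 49% of all tested genes on day 0, 4 and 10. DESeq2 on recovered reads called the day 4 and day 10 differences (adjusted p = 0.0130 and 0.0395). WNT5A differed by 0.57 ± 0.14 on day 0 (limma adjusted p = 0.221), by −0.35 ± 0.14 on day 4 (limma adjusted p = 0.229) and by −0.36 ± 0.14 on day 10 (limma adjusted p = 0.130), so the shIL1R libraries were the higher ones before Ras and the lower ones after it. SFRP1 differed by −0.84 ± 0.22 on day 0 (limma adjusted p = 0.261), by 0.43 ± 0.22 on day 4 (limma adjusted p = 0.327) and by 0.32 ± 0.22 on day 10 (limma adjusted p = 0.378). DESeq2 called the day 0 differences of WNT5A (adjusted p = 0.0225) and SFRP1 (adjusted p = 0.0196). AXIN2 differed by −0.87 ± 0.40 on day 10 (limma adjusted p = 0.191), with both shIL1R libraries below both shScr libraries. For WNT5B the 95% intervals ran from −0.35 to 0.20 on day 0, from −0.25 to 0.31 on day 4 and from −0.48 to 0.08 on day 10. WNT2 differed by 2.03 ± 0.72 on day 0 (limma adjusted p = 0.448), by −0.04 on day 4 and by −0.13 on day 10. The 95% intervals of WNT2 were over 3 log2 units wide on each day.

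**Figure D3:**
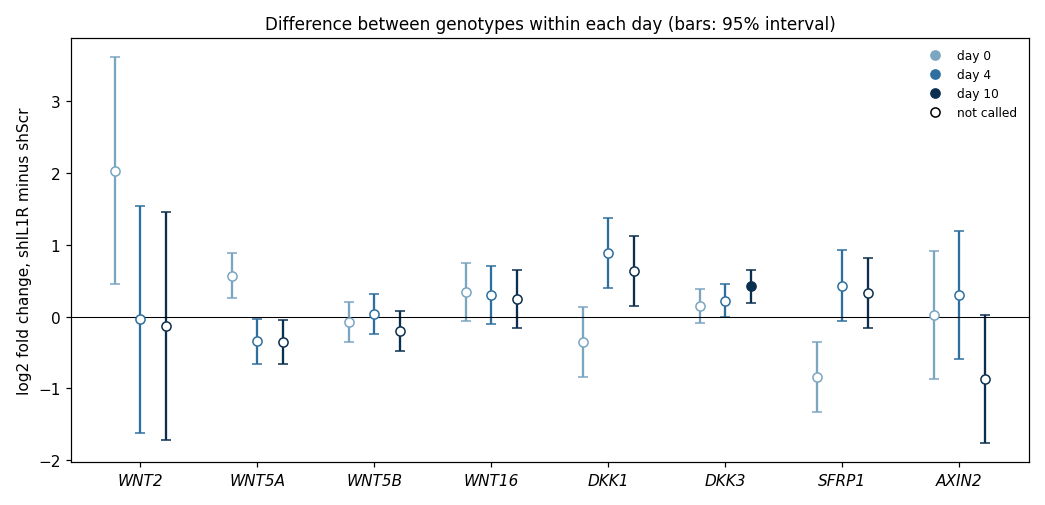
Log2 fold change of shIL1R over shScr for the 8 members on day 0, day 4 and day 10 (light to dark blue), with 95% intervals from the limma fit as bars. The 1 filled point is DKK3 on day 10 (0.42). WNT5A, SFRP1 and DKK1 have 1 sign on day 0 and the other on both later days, with no call. For WNT2 the day 4 and day 10 values (−0.04 and −0.13, standard error 0.72) are too small for a sign to be read.

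The change from day 0 was itself compared between the genotypes, with the day 0 libraries entering both interactions. On day 4 no member was called by limma (3 at an unadjusted p under 0.05, 3 by DESeq2 on recovered reads, 0 by edgeR) against 0.0287% of all tested genes. The 3 with the smallest p were SFRP1 (1.27 ± 0.31, limma adjusted p = 0.265), DKK1 (1.24 ± 0.32, limma adjusted p = 0.287) and WNT5A (−0.92 ± 0.20, limma adjusted p = 0.233). On day 10 WNT5A was the 1 member called (−0.93 ± 0.20, limma adjusted p = 0.0377) against 2.41% of all tested genes, a rise in shIL1R smaller by 0.93 on the log2 scale than in shScr. This call was lost in 8 of 23 alternative settings, at adjusted p-values from 0.0512 to 0.188. SFRP1 (1.16 ± 0.31, limma adjusted p = 0.0798) and DKK1 (0.99 ± 0.32, limma adjusted p = 0.126) missed it.

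Profiles over the 12 libraries were compared by the root mean square difference of log2 values after each gene was centred on its own mean, among 11864 genes with a group mean of at least 50 normalized counts. Among the members themselves the closest pair was WNT5B and DKK3 (0.26), followed by WNT5A and WNT5B (0.35), and the farthest were WNT2 and DKK1 (1.47). Nearest to DKK1 in the table were ID2 (0.26), DLL4 (0.32) and CYR61 (0.35). ID2, an inhibitor of helix-loop-helix factors, had 670 and 688 normalized counts in shScr on day 0, 566 and 320 on day 4 and 138 and 144 on day 10, so its day 4 libraries were split as those of DKK1 were. WNT5A lay nearest to CHIC2 (0.14), C4orf3 (0.14) and HOMER1 (0.15), and WNT5B to WDR45B (0.05), UQCRH (0.05) and RABEP1 (0.06). WNT16 was closest to ADAM9 (0.12), SDC4 (0.14) and ABHD12 (0.15). DKK3 lay near CDC42EP1 and DGAT1 (each 0.08), and SFRP1 to STARD5 (0.22), TAF1 (0.25) and POLR2M (0.25). For WNT2 the nearest gene was OLR1 (0.33), with 56.6 and 122 normalized counts in the shIL1R day 0 libraries and 9.77 and 36.5 on day 4, replicate 2 again the higher. AXIN2 was nearest to B3GNT5 (0.31), KCNAB2 (0.36) and CREG1 (0.37). A flat gene has many near neighbours, so these distances are not comparable between members. The neighbours were picked for likeness over these same libraries, so a shared split of replicates, as in ID2 and OLR1, follows from that choice.

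The rest of the pathway was read from 9 lists with 95 other genes, all in the table and 62 of them tested. In shScr cells 21 were called higher and 11 lower on day 4 (51.6% of those tested, against 38.3% of all tested genes), and 24 higher and 19 lower on day 10 (69.4% against 63.8%). In shIL1R cells 23 were higher and 17 lower on day 10 (64.5% against 60.3%). For the lists below, the shares of all tested genes on day 10 were 32.5% higher and 31.3% lower in shScr. In shIL1R they were 30% and 30.3%, and no list was tested as a set.

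Of 15 other WNT ligands 4 were tested, and on day 10 the same counts were found in both genotypes, 2 higher and 1 lower. WNT7B, a canonical ligand, went from 45.9 and 36.7 normalized counts on day 0 to 275 and 251 on day 4 and 561 and 513 on day 10 in shScr cells. Its shIL1R libraries held 39.5 and 38.7, then 163 and 147, then 255 and 245. The rise to day 10 was 3.68 ± 0.16 in shScr (limma adjusted p = 1.8e-08) and 2.65 ± 0.16 in shIL1R (limma adjusted p = 2.14e-07), and on day 10 WNT7B was lower in shIL1R by −1.10 ± 0.16 (limma adjusted p = 0.00357). WNT9A was higher on day 10 in shScr (2.56 ± 0.34, limma adjusted p = 6.27e-05) and WNT3 lower (−1.94 ± 0.31, limma adjusted p = 0.00021).

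Of 5 genes for processing and release of WNT, 4 were tested. WLS, the carrier that takes WNT to the cell surface, rose in shScr cells from 7339 and 7701 normalized counts on day 0 to 27994 and 31641 on day 4 and 39856 and 42261 on day 10 (2.45 ± 0.08 on day 10, limma adjusted p = 6.94e-09). PORCN, the acyltransferase that puts the lipid on WNT, had 241 and 215 normalized counts in shScr on day 0 and 991 and 1022 on day 10 (2.14 ± 0.16, limma adjusted p = 6.99e-07). The increases in shIL1R were 2.24 ± 0.08 for WLS (limma adjusted p = 1.89e-08) and 1.52 ± 0.16 for PORCN (limma adjusted p = 1.13e-05). TRABD2A, a protease that inactivates WNT, was lower on day 10 in shScr (−1.52 ± 0.14, limma adjusted p = 3.29e-06). NOTUM, a secreted enzyme that inactivates WNT, went the other way from TRABD2A in shIL1R cells, from 9.88 and 2.58 normalized counts on day 0 to 67.1 and 47.4 on day 10 (3.20 ± 0.70, limma adjusted p = 0.00224). In shScr cells NOTUM had 3.67 and 3.34 on day 0 and 23.6 and 7.09 on day 10, which was not called (1.65 ± 0.70, limma adjusted p = 0.0593). The difference between those changes was not called either (1.55 ± 0.99, limma adjusted p = 0.419).

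Of 12 Frizzled and LRP receptor genes 11 were tested, and 1 was higher and 3 lower in shScr on day 10. FZD7 had 7672 and 7039 normalized counts in shScr on day 0 and 1412 and 1308 on day 10 (−2.43 ± 0.12, limma adjusted p = 4.94e-08). FZD2 had 2899 and 2411 on day 0 and 773 and 694 on day 10 (−1.85 ± 0.14, limma adjusted p = 7.56e-07). FZD8 was the 1 called higher, from 808 and 784 to 3340 and 3637 normalized counts (2.13 ± 0.25, limma adjusted p = 2.47e-05). In shIL1R cells FZD2 was lower by less, 1281 and 1652 normalized counts on day 10, and it was 0.99 ± 0.14 above shScr on that day (limma adjusted p = 0.00344), a call that was gone without replicate 2 of shScr day 10 (0.91, limma adjusted p = 0.0517).

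Among 12 non-canonical receptors and planar polarity genes 10 were tested, with 4 higher and 4 lower in shScr on day 10. The polarity gene VANGL1 was lower (−2.43 ± 0.22, limma adjusted p = 3.14e-06) and CELSR1 higher (1.94 ± 0.19, limma adjusted p = 6.23e-06). ROR1, a receptor for WNT5A, was lower in shScr (−1.89 ± 0.30, limma adjusted p = 0.000222) and in shIL1R (−2.40 ± 0.30, limma adjusted p = 4.47e-05). On day 10 WNT5A was called higher and ROR1 and FZD7 lower in both genotypes. The WNT5A call in shIL1R was marginal (0.36, limma adjusted p = 0.0456) and did not hold under every setting. Not all receptors were lower, as FZD8 was higher in shScr (2.13) and in shIL1R (1.65).

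Of 13 other secreted inhibitors and DKK receptors 4 were tested, with 1 higher and 2 lower in shScr on day 10. DKK2, a relative of DKK1, was nearly silent on day 0 with 3.67 and 0.834 normalized counts in shScr (4 reads and 1 read) and reached 51.9 and 76.0 on day 10. Its shIL1R libraries went from 1.80 and 5.16 to 52.8 and 38.4. DKK1 and DKK2 therefore moved in opposite directions, although DKK2 on day 10 stayed below DKK1. APCDD1, a membrane inhibitor, had 180 and 168 normalized counts in shScr on day 0 and 15.3 and 1.01 on day 10 (−4.93 ± 0.82, limma adjusted p = 0.000303). Since 1 APCDD1 library had a single read, the size of this fall depends on the pseudocount of 1. KREMEN1, a receptor for DKK proteins, was 0.87 ± 0.14 higher in shIL1R than in shScr on day 10 (limma adjusted p = 0.00555), a call that was gone (limma adjusted p = 0.0636) without replicate 2 of shScr day 10, where KREMEN1 had 489 normalized counts against 647 in replicate 1.

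**Figure D4:**
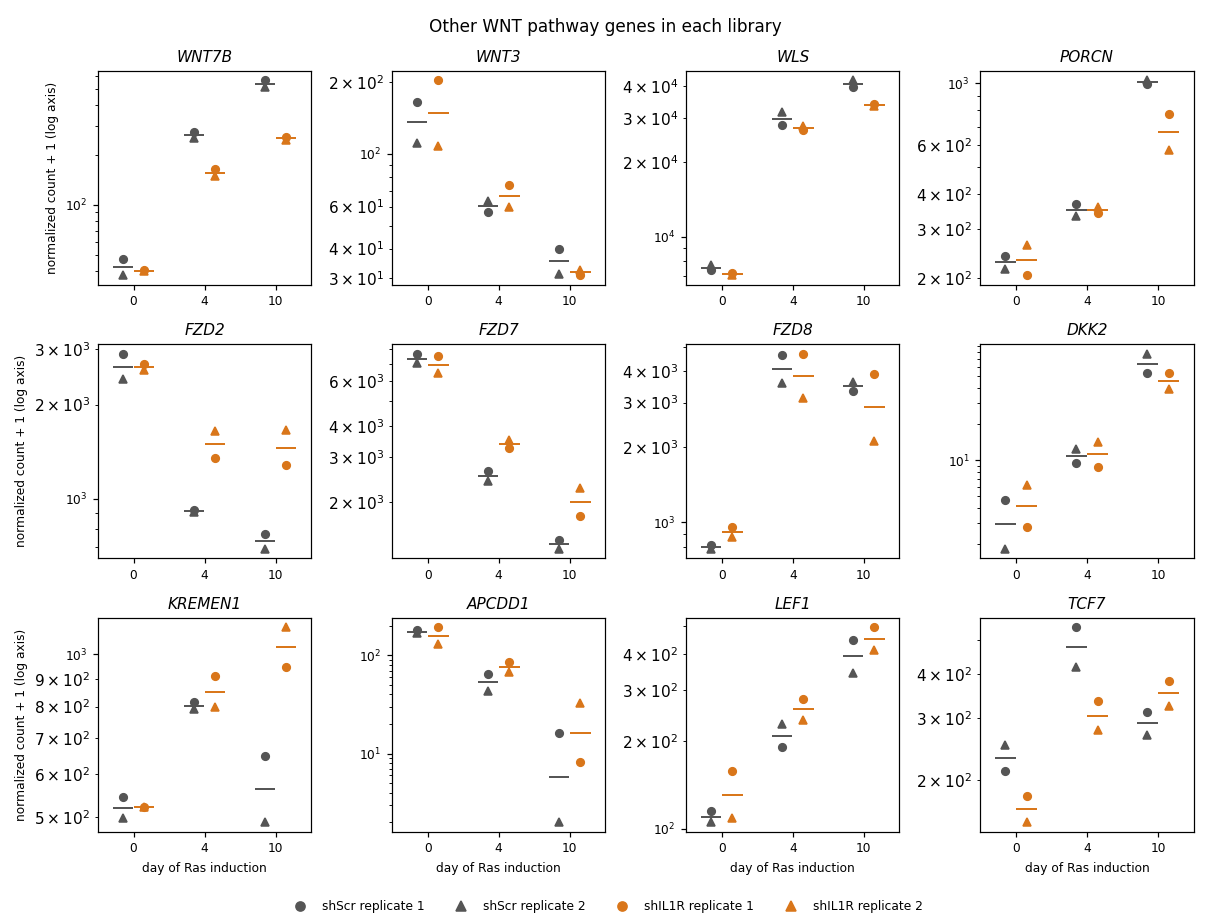
Normalized count plus 1 (log axes) against the day of Ras induction for 12 other pathway genes, with shScr in grey and shIL1R in orange. Circles and triangles are replicates 1 and 2 and the line is the mean of a group; WNT7B, WLS, PORCN, FZD8, DKK2 and LEF1 rise, while WNT3, FZD2, FZD7 and APCDD1 fall.

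Of 9 genes for R-spondins, their receptors and Frizzled ubiquitin ligases 2 were tested, and both were lower on day 10 in both genotypes. LGR4 changed by −0.85 in shScr (limma adjusted p = 0.0305) and −1.98 in shIL1R (limma adjusted p = 0.000218). ZNRF3 changed by −0.72 (limma adjusted p = 0.00466) and −0.47 (limma adjusted p = 0.0431). Inside the cell, 13 of 13 genes of Dishevelled, the destruction complex and beta-catenin were tested, with 7 higher and 3 lower in shScr on day 10. DVL3 (0.77 ± 0.09, limma adjusted p = 2.53e-05), AXIN1 (0.75 ± 0.13, limma adjusted p = 0.000349) and DVL1 (0.59 ± 0.08, limma adjusted p = 0.000102) were among those higher. Of 10 TCF/LEF factors and co-activators 4 were higher and 3 lower. LEF1 rose from 114 and 104 normalized counts in shScr on day 0 to 189 and 228 on day 4 and 444 and 343 on day 10 (1.83 ± 0.20, limma adjusted p = 1.59e-05). Of 13 feedback targets 9 were tested, and LEF1, TCF7, NOTUM, APCDD1 and ZNRF3 among them also stand in the lists above. In shScr 4 were higher and none lower on day 4, against 19.4% higher and 18.9% lower of all tested genes. AXIN2 was at its lowest on that day. LEF1, TCF7 and MYC (1.04, limma adjusted p = 0.0261) were among the 4, with LEF1 and TCF7 already counted as TCF/LEF factors. TCF7 had 211 and 250 normalized counts on day 0 and 541 and 416 on day 4 (1.04 ± 0.18, limma adjusted p = 0.000878). On day 10, 4 targets were higher and 2 lower in shScr, the latter being APCDD1 and ZNRF3, both counted in earlier lists. Between the genotypes on day 10 the 95 genes gave 5 higher and 3 lower (12.9% of those tested, against 9.21% of all tested genes), and none was called on day 0 or day 4.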

How the data were processed

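Poly(A) RNA of 12 libraries was measured by stranded RNA sequencing, per the labels' protocols. The deposited values are normalized counts for each gene (a signal: reads scaled by 1 factor per library). TopHat, HTSeq, DESeq2 and hg19 are what the authors used, per the submitters' processing notes, with no versions. Annotation and counting strand are not given in the sources used here. In each library all values were whole multiples (100%, within 0.001) of the lowest one above 0, which gave back whole reads, and edgeR 4.0.16 and DESeq2 1.42.0 were run on them as alternatives.

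Testing needed 10 or more normalized counts in 2 or more libraries and used limma 3.58.1 in R 4.3.3 on log2(value + 1), a scale that understates the change of low genes. A mean was fitted for each of the 6 groups, with eBayes and trend (6 residual and 4.98 prior degrees of freedom). The 11 contrasts are 6 over time, 3 between genotypes and 2 interactions. Two-sided p-values were adjusted after Benjamini and Hochberg. Levels carry an n of 2, and Poisson intervals cover counting error only. The script was tested on simulated data.

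The members and gene lists were chosen with earlier results of these data known. Named genes are IL1R1, the 8 members, the 3 most changed called genes of each list per contrast (or fewer), and the 3 genes nearest to each member, of which 1 is not reported here. Alternatives were other pseudocounts (0.5 and 5) and filters, TMM and quantile scaling, the replicate number as a block, a fit of the compared groups alone, both count tools, and each library left out in turn. The block within genotype and a crossed block were added after the data were seen.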

Additional observations from a re-analysis of the deposited data

Results flagged for a closer look

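The following 4 genes changed from day 0 to day 10 by different amounts in the genotypes, by the limma interaction. For WNT5A the shIL1R change was −0.93 ± 0.20 relative to that in shScr on the log2 scale (limma adjusted p = 0.0377), and 15 of 23 alternative settings kept the call. WNT7B gave −1.03 ± 0.22 (limma adjusted p = 0.0377), kept in 9 of 23 settings. FZD2 gave 0.99 ± 0.20 (limma adjusted p = 0.0284), kept in 17 of 23. KREMEN1 gave 0.86 ± 0.20 (limma adjusted p = 0.0475), kept in 9 of 23. The groups of 2 are too small to look for outlying libraries.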

How the results depend on the processing

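Over all alternatives, called values of the 8 members kept their call 508 times and lost it 65 times, and values not called gained a call 59 times and changed sign 37 times. The main counts of called genes were 5326, 8879 and 6147 in shScr (day 4 against 0, day 10 against 0, day 10 against 4), 5627, 8396 and 5000 in shIL1R, 9, 39 and 1283 between genotypes at day 0, 4 and 10, and 4 and 336 for the interactions at day 4 and 10. With each library left out in turn they ran, in that order, from 3332 to 6340, 7283 to 9450, 4358 to 7071, 3622 to 6684, 6858 to 8536, 3346 to 5337, 1 to 62, 1 to 741, 111 to 3519, 0 to 26 and 42 to 2121. Members called ran from 2 to 4, 3 to 5, 2 to 4, 1 to 6, 5 to 7, 1 to 3, 0 to 1, 0 to 1, 0 to 4, 0 to 1 and 0 to 2. A fit of the compared groups alone called 2006 genes in shIL1R day 10 against 4, 457, 2 and 74 between genotypes and 41 and 155 for the interactions; its members were 4 (shIL1R day 10 against 0), 1 (shIL1R day 10 against 4), 4 (genotypes day 0), 0 (genotypes day 10) and 1 (interaction day 4). DESeq2 called 136 and 469 genes between genotypes at day 0 and 4 and 104 and 802 for the interactions, with 2, 1 and 2 members between genotypes and 3 and 3 for the interactions. No filter gave 9 genes between genotypes at day 4, 0 and 216 for the interactions, and 0 members for genotypes at day 10 and for the interaction at day 10; a filter of 50 gave 19 genes between genotypes at day 4 and left 2 members for shIL1R day 4 against 0. Quantile normalization gave 15 genes between genotypes at day 0, 1 for the interaction at day 4, and 1 member for shIL1R day 10 against 4. In these counts the cause was not tested.

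The replicate numbers were checked for pairing, by correlations between groups of the difference of replicate 2 from replicate 1 over 13924 genes. Within shIL1R they were 0.231 (day 0 and 4), 0.0535 (day 0 and 10) and 0.203 (day 4 and 10). Within shScr they were −0.0453, 0.125 and −0.102. Groups of different genotypes gave values from −0.098 (day 10 of both) to 0.185 (shScr day 4 with shIL1R day 10), so values near 0.2 were not particular to shIL1R. In shIL1R, replicate 2 was above replicate 1 on all 3 days for WNT2 and WNT16, and below it for IL1R1, AXIN2, WNT5B and DKK1. On day 4 the log2 gap was only −0.0103 for AXIN2 and −0.0061 for DKK1. The shScr libraries also kept 1 order on all 3 days for some members, with replicate 2 lower for WNT2 and DKK3 and higher for SFRP1. The labels do not say whether the numbers mark hairpins, and they were not taken to pair the libraries. The replicate block over all libraries called 5295 genes in shScr day 4 against 0 and 312 for the interaction at day 10 and moved no count by over 1.5 times. The block within genotype, added after seeing the data, gave 51 and 66 genes between genotypes at day 0 and 4, 0 for the interaction at day 4, and 1 member (WNT2) at day 0. Crossed numbers in shScr day 4 and 10 gave 6118 genes and 3 members.

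Values not called in the main fit changed sign as follows. Quantile normalization gave, in shScr day 10 against 0, −0.27 for DKK3 (limma adjusted p = 0.0297) and −0.14 for AXIN2; in shScr day 10 against 4, −0.0425 for WNT5A and −0.0306 for DKK3; −0.21 for DKK3 in shIL1R day 4 against 0; and −0.0865 for AXIN2 between genotypes at day 0. For WNT2 between genotypes a pseudocount of 5 gave 0.0352 and edgeR 0.22 at day 4, and edgeR gave 0.0870 and DESeq2 0.0703 at day 10. With single libraries left out, shScr day 4 against 0 ran from −0.81 to 0.0231 for DKK1 and −0.17 to 0.14 for DKK3, and shScr day 10 against 4 from −0.0033 to 0.31 for DKK3, −0.45 to 0.16 for WNT16 and −0.0966 to 0.19 for WNT5A. In shIL1R day 10 against 4 the ranges were −0.15 to 0.68 for SFRP1, −0.41 to 0.0211 for WNT16, −0.57 to 1.28 for WNT2, −0.17 to 0.23 for WNT5A and −0.0122 to 0.44 for WNT5B. Between genotypes they were −0.42 to 0.46 for AXIN2 at day 0, −0.96 to 0.88 for WNT2 and −0.0617 to 0.13 for WNT5B at day 4, and −0.0927 to 0.74 for SFRP1, −0.0545 to 0.55 for WNT16, −0.90 to 0.63 for WNT2 and −0.43 to 0.0260 for WNT5B at day 10. Interactions ran from −0.17 to 0.72 for AXIN2, −0.0770 to 0.23 for DKK3 and −0.12 to 0.0468 for WNT16 at day 4, and from −0.40 to 0.21 for WNT16 and −0.35 to 0.10 for WNT5B at day 10. Depth limits AXIN2 and WNT2, with single-digit reads in several libraries.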
